A study of Homo sapiens with 8 samples.

Results

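Expression of 6 metallothionein genes (MT2A, MT1E, MT1F, MT1G, MT1M and MT1X) and a pair of genes of zinc control (MTF1 and SLC30A1) was followed in EA.hy926 cells after deletion of an enhancer. Their 8 symbols are 8 of the 27946 in the deposited table, which has 65572 transcript rows, and for each symbol the transcript row with the highest mean FPKM over the 8 libraries was taken, so that the row of each gene was chosen by its mean FPKM and by no contrast. The symbols themselves were selected on earlier results of these data. EA.hy926 is an established line made by fusing umbilical vein endothelial cells with a lung carcinoma line. RNA was sequenced from 2 libraries of control EA.hy926 cells, from 3 clonal lines in which CRISPR/Cas9 had removed the enhancer E2 (ΔE2) and from 3 clonal lines in which it had removed SE12313-b (ΔSE12313-b), another enhancer of the same super-enhancer on chromosome 16. Both deletions thus share the parental line, the ribonucleoprotein method of editing and the same control libraries. Each deletion library is 1 clone grown from a single cell, while it is not stated if the control cells for RNA had been cloned or had received guides, so that deletion and cloning cannot be told apart. The control libraries may be technical repeats, in which case p values measure only the spread between these libraries.

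Metallothioneins are small proteins, rich in cysteine, that bind zinc and copper and also cadmium. Zinc taken up by the cell activates MTF1, a zinc finger transcription factor that binds metal response elements in the promoters of metallothionein genes and of SLC30A1, whose product (ZnT1) carries zinc out across the plasma membrane. In endothelium, as in other tissues, the pool of bound zinc is known to buffer free zinc and to respond to metals, glucocorticoids and oxidants.

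The 6 metallothionein genes lie in 1 cluster on chromosome 16 (GRCh37, 56642445 to 56718108, 75.7 kb), in the order MT2A, MT1E, MT1M, MT1F, MT1G and MT1X, with MT1G alone on the minus strand. The cluster is 20.6 Mb from ADAMTS18, a gene next to the super-enhancer. In GRCh37 coordinates MT2A (NM_005953) spans chr16:56642445-56643409, MT1E chr16:56659585-56661024, MT1M chr16:56666534-56667898, MT1F chr16:56691855-56693215, MT1G chr16:56700647-56701977 and MT1X chr16:56716382-56718108. MTF1 (chr1:38275239-38325292) and SLC30A1 (chr1:211748381-211752099) are on the minus strand of chromosome 1. The gene models of MT2A, MT1F, MT1G, MT1M and MT1X in GENCODE have 3 exons each and code for 61 residues.

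RefSeq promoters (GRCh38.p14, from 250 bases before to 50 bases after the start) were given for 4 of the 8 genes, MT2A, MT1X, SLC30A1 and MTF1. MT1E, MT1F, MT1G and MT1M had no entry. The 250 bases before the start are printed for the metallothioneins and for SLC30A1 because MTF1 is known to act through such promoters. Capitals mark each match to the core of the metal response element, searched as TGCACNC and TGCGCNC on both strands. The stretches are chr16:56608334-56608583 (plus strand) for MT2A, chr16:56682220-56682469 (plus strand) for MT1X and chr1:211579162-211579411 (minus strand) for SLC30A1.
MT2A: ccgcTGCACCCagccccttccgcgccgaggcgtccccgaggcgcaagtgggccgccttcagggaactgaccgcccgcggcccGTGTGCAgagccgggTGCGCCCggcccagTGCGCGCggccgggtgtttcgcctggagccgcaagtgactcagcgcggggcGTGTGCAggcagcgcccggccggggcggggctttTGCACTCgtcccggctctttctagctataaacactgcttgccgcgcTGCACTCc
MT1X: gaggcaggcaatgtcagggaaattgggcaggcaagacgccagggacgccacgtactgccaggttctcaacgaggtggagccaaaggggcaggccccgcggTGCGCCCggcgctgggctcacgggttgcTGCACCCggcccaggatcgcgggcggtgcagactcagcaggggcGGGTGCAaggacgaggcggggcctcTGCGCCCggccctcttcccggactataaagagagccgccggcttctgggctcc
SLC30A1: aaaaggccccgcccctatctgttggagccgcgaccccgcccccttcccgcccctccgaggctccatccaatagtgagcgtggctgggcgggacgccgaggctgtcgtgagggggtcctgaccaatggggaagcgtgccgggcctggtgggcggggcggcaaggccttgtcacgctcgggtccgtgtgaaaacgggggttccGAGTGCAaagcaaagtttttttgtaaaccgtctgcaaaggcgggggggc
Over all 300 bases, the MT2A promoter held 8 matches, 5 on its own strand and 3 on the opposite strand, and 0.0199% of the 35116 promoters in the table held as many or more on either strand. MT1X held 4 matches, 3 of them on its own strand, and 0.601% of promoters held as many or more on either strand. SLC30A1 held 2 matches, both on the opposite strand, where 8.6% of promoters held 2 or more on either strand, and MTF1 held 0. At least 1 match was present in 29.6% of all promoters. The G+C content of the 4 promoters was between 67% and 72%, and its part in the number of matches was not tested. A match is a description of these letters and does not show that MTF1 binds there.

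**Figure D1:**
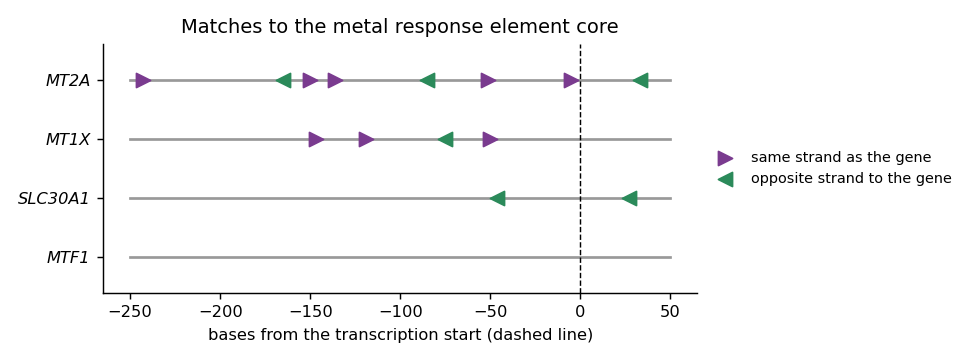
Matches to the metal response element core in the promoters of MT2A, MT1X, SLC30A1 and MTF1. The horizontal axis is the distance in bases from the transcription start (dashed line), each triangle is a match and its direction and colour give the strand. MT2A has 8 matches spread over the window, MT1X 4, SLC30A1 2 on either side of the start and MTF1 0.

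The libraries held between 12067552 and 19101152 reads, as recovered from the FPKM values (fragments per kilobase of transcript, relative to the size of each library), and the control libraries were the shallowest. Of the endothelial markers CDH5 (103 FPKM), ENG (162) and TIE1 (56.0) were abundant in control cells, CLDN5 was listed at 0 in every library and KDR was under 0.3 FPKM in the mean of each group. Of 8 endothelial markers tested, 3 rose and 1 fell at least 2-fold in ΔE2, and 2 rose and 1 fell in ΔSE12313-b. Of all 13790 genes tested, 11.2% rose and 8.36% fell by that much in ΔE2 and 14.7% and 7.83% in ΔSE12313-b. The keratin genes KRT7, KRT8 and KRT18, all 3 of the epithelial markers that could be tested, rose at least 2-fold in both deletions. The summed level of the 8 epithelial markers was 361 to 363 FPKM in control, 1084 to 1210.1 in ΔE2 and 811 to 1069 in ΔSE12313-b, and that of the 10 endothelial markers 371 to 372, 390.0 to 570.0 and 372 to 532 FPKM. The epithelial sum is almost wholly that of the 3 keratins. EPCAM, too low to be tested, went the other way, with means of 0.399 FPKM in control, 0.186 in ΔE2 and 0.0497 in ΔSE12313-b. KRT19 and SFTPC were at 0.16 FPKM or less in every library. The epithelial markers CDH1 and NKX2-1 were at 0 in all libraries, and 0 of the 3 leukocyte markers could be tested. The part of these shifts in the values below was not tested. Within a bulk library, a change in the share of cells that express a gene and a change in RNA per cell cannot be told apart.

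Of the 8 genes, 6 passed the filter of 0.5 FPKM in at least 2 libraries. Of these, 5 reached 0.5 FPKM in all 8 libraries, whereas MT1E reached it only in the 3 ΔE2 clones and so was tested only through the group in which it was high. MT1F and MT1M, a pair of metallothionein-1 isoforms, had 0 reads in all 8 libraries. A library of this depth allows MT1F up to between 0.328 and 0.519 FPKM and MT1M up to between 0.361 and 0.572 FPKM, the level of 3 reads, which covers counting error only. Against control, ΔE2 had higher MT2A, MT1X, MT1G, MT1E and SLC30A1. ΔSE12313-b had higher MT1X, MT1G and SLC30A1, an MT2A level whose difference from control did not pass the test, and no MT1E read. MTF1 differed from control by less than the test could call in either deletion.

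**Figure D2:**
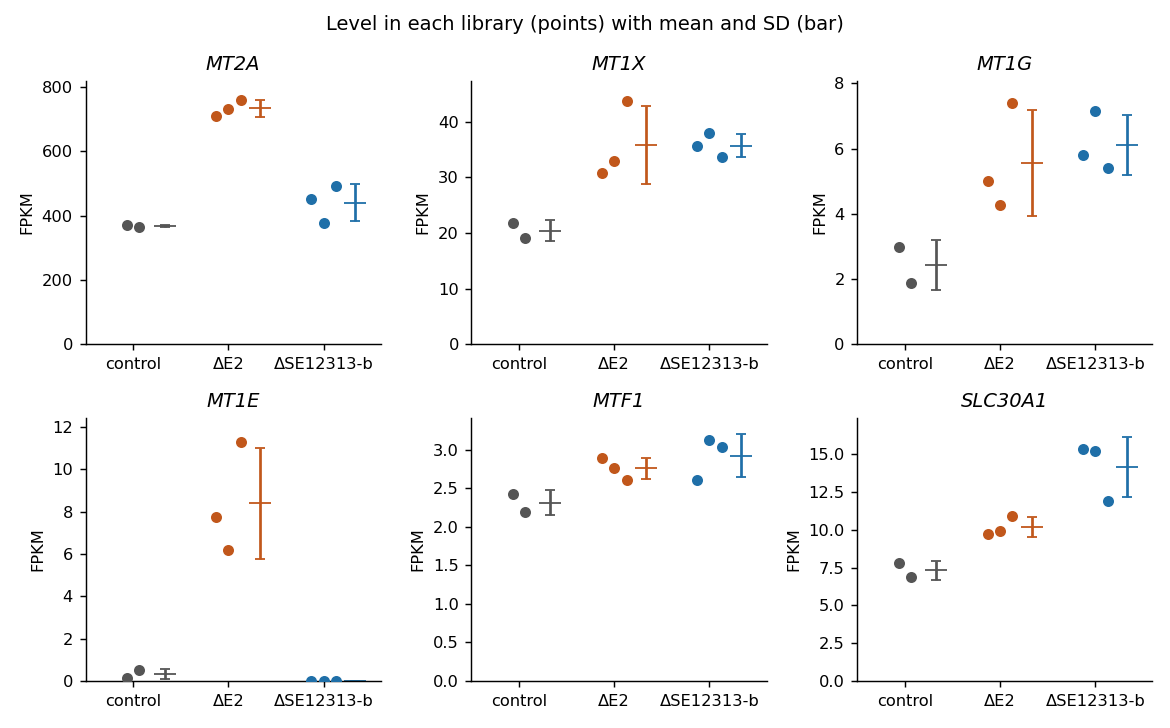
Level of the 6 expressed genes in each library. The vertical axis is FPKM from 0 on a scale of its own for each gene, points are libraries, and the horizontal line and bar beside them are the mean and SD of the group (control n = 2, ΔE2 n = 3, ΔSE12313-b n = 3). MT2A and MT1E stand highest in ΔE2, MT1X and MT1G are above control in both deletions, and SLC30A1 stands highest in ΔSE12313-b.

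MT2A, the metallothionein-2 gene and the main isoform in many human cells, was the most abundant member in every library. Its level was 369 and 366 FPKM in the control libraries, 710.0, 731 and 760.0 FPKM in the ΔE2 clones and 453, 377 and 491 FPKM in the ΔSE12313-b clones. Every ΔE2 clone lay above all other libraries, whereas the second ΔSE12313-b clone was only slightly above the higher control. The means were 368 ± 2.52 (SD, n = 2), 734 ± 25.2 (SD, n = 3) and 440.4 ± 58.2 FPKM (SD, n = 3). Ranked by FPKM among all genes of its library, MT2A was at place 111 and 113 in control, at 53, 48 and 46 in ΔE2 and at 111, 119 and 113 in ΔSE12313-b. The log2 fold change of ΔE2 against control was 1.00 (SE 0.11, limma with Benjamini-Hochberg adjusted p = 0.000223), a ratio of 1.99 that is just under the 2-fold limit used for a call. It passed that limit, at 1.00 and 1.02 on the log2 scale, without control replicate 1 or without ΔE2 replicate 1. In ΔSE12313-b the log2 fold change was 0.25 (95% interval -0.01 to 0.51, limma adjusted p = 0.0867). That value was below the median of all tested genes, 0.27, and turned to -0.0358 when each library was centred. Without the second ΔSE12313-b clone it was 0.36 with a limma adjusted p of 0.00672. Set directly against each other, the clones of ΔE2 had more MT2A than those of ΔSE12313-b by 0.74 on the log2 scale (SE 0.10, 95% interval 0.51 to 0.98, limma adjusted p = 0.00211).

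MT1X, a metallothionein-1 isoform, was the next most abundant. It measured 21.7 and 19.1 FPKM in control, 30.8, 32.9 and 43.8 FPKM in ΔE2 and 35.7, 37.9 and 33.6 FPKM in ΔSE12313-b. All 6 clones lay above both controls, and the ranges of the deletions overlapped. The log2 fold change was 0.80 (SE 0.15, limma adjusted p = 0.00270) in ΔE2 and 0.81 (SE 0.15, limma adjusted p = 0.00213) in ΔSE12313-b. With quantile normalization the second was 0.38 with a limma adjusted p of 0.0540. Between the deletions the difference was -0.01 (95% interval -0.32 to 0.30, limma adjusted p = 0.970), so that differences within this interval could not be told from 0. Reads of 75 bases can be shared with MT1X copies: 36.1% of the 75-base windows of its GENCODE transcript also occur in 3 other genes, among them the pseudogene MT1XP1 and MT1G, and its level is uncertain to that extent.

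MT1G, another metallothionein-1 isoform, had few reads, from 9 to 15 in the control libraries, 29 to 40 in ΔE2 and 34 to 42 in ΔSE12313-b. Its level was 2.98 and 1.88 FPKM in control, 5.01, 4.27 and 7.40 FPKM in ΔE2 and 5.79, 7.14 and 5.39 FPKM in ΔSE12313-b. The clones of both deletions were above both controls and overlapped each other. MT1G rose by 1.16 on the log2 scale in ΔE2 (SE 0.27, limma adjusted p = 0.00748) and by 1.32 in ΔSE12313-b (SE 0.27, limma adjusted p = 0.00345), past the 2-fold limit in both. The call in ΔE2 was lost without control replicate 2 (0.84, limma adjusted p = 0.0639) and fell under the 2-fold limit without ΔE2 replicate 3 (0.94). The deletions differed by -0.16 (95% interval -0.72 to 0.39, limma adjusted p = 0.658), an interval wide enough to hold a difference of either sign. Of its 75-base windows 6.63% are shared with MT1X and MT1XP1.

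MT1E, a metallothionein-1 isoform whose RefSeq row here is NM_175617, was nearly absent outside ΔE2. Its reads numbered 1 and 3 in the control libraries, 74, 53 and 77 in the ΔE2 clones and 0 in each of the 3 ΔSE12313-b clones. In FPKM these are 0.157 and 0.496 in control, 7.73, 6.18 and 11.3 in ΔE2 and 0 in ΔSE12313-b. The ΔE2 clones stood apart from all other libraries, and a library of ΔSE12313-b would have had 3 reads at between 0.372 and 0.404 FPKM. Because MT1E passed the filter only through ΔE2, no p value is given for it and its levels are a description. Counted as reads relative to library size, the ratio of ΔE2 to control was 25.3 with an exact 95% interval of 9.75 to 93.9 for counting error only (204 against 4 reads). Against ΔSE12313-b, the mean level in ΔE2 was 21.8-fold that of 3 reads in each library without a read. This value leaves out counting error and the spread between clones in ΔE2. Between ΔSE12313-b and control, with 0 against 4 reads in all and 3 or fewer in each library, no fold is given. In its GENCODE model, which is longer than the RefSeq row, 1.64% of the 75-base windows are shared with MT1G and MT1M.

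The genes whose values were most like those of MT1E over the 8 libraries were ZBTB44, CD33, NTN4, THY1 and PRDM10, with Pearson r between 0.980 and 0.989 on log2(FPKM + 0.1). As the libraries fall into 3 groups, such an r describes mainly the order of the groups and carries no p. Like MT1E, THY1 was without a read in the 3 ΔSE12313-b clones. It had 11 and 18 reads in control and 195, 206 and 151 reads in ΔE2. ZBTB44, THY1 and PRDM10 are on chromosome 11, CD33 on chromosome 19 and NTN4 on chromosome 12, so that 0 of the 5 are on chromosome 16.

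MTF1, the zinc-sensing transcription factor, was at 2.42 and 2.20 FPKM in control, 2.89, 2.77 and 2.61 FPKM in ΔE2 and 2.60, 3.12 and 3.04 FPKM in ΔSE12313-b. The 6 clones were above both controls by a small margin. The log2 fold change was 0.24 in ΔE2 (95% interval -0.05 to 0.54, limma adjusted p = 0.138) and 0.32 in ΔSE12313-b (95% interval 0.03 to 0.62, limma adjusted p = 0.0580), which differ from the median of all tested genes by 0.10 and 0.05. The second passed the test at 0.40 without ΔSE12313-b replicate 1 (limma adjusted p = 0.0376), with voom on the recovered reads at 0.33 (adjusted p = 0.0367) and without the variance trend at 0.32 (adjusted p = 0.0363). The deletions differed by -0.08 (95% interval -0.34 to 0.18, limma adjusted p = 0.654).

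SLC30A1, which encodes the zinc exporter ZnT1, had 7.78 and 6.87 FPKM in control, 9.75, 9.92 and 10.9 FPKM in ΔE2 and 15.3, 15.2 and 11.9 FPKM in ΔSE12313-b. The 3 groups did not overlap, with control lowest and ΔSE12313-b highest. SLC30A1 rose by 0.93 on the log2 scale in ΔSE12313-b (SE 0.13, limma adjusted p = 0.000507), and by 1.02 or 1.05, past the 2-fold limit, without control replicate 1 or without ΔSE12313-b replicate 3. In ΔE2 it rose by 0.47 (SE 0.13, limma adjusted p = 0.0162), under 2-fold, and the adjusted p was above 0.05 when each library was centred (0.31, adjusted p = 0.0698), with quantile normalization (0.28, adjusted p = 0.0963), without control replicate 2 (0.38, adjusted p = 0.116) and without ΔE2 replicate 3 (0.42, adjusted p = 0.0522). Between the deletions the difference was -0.46 (95% interval -0.73 to -0.19, limma adjusted p = 0.0234), lower in ΔE2. The adjusted p was above 0.05 here too with either scaling (both -0.33, adjusted p = 0.0763 and 0.0754), with a replicate block (adjusted p = 0.0597), and without ΔE2 replicate 1 or 2 or ΔSE12313-b replicate 1 or 2 (adjusted p between 0.0538 and 0.0785).

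**Figure D3:**
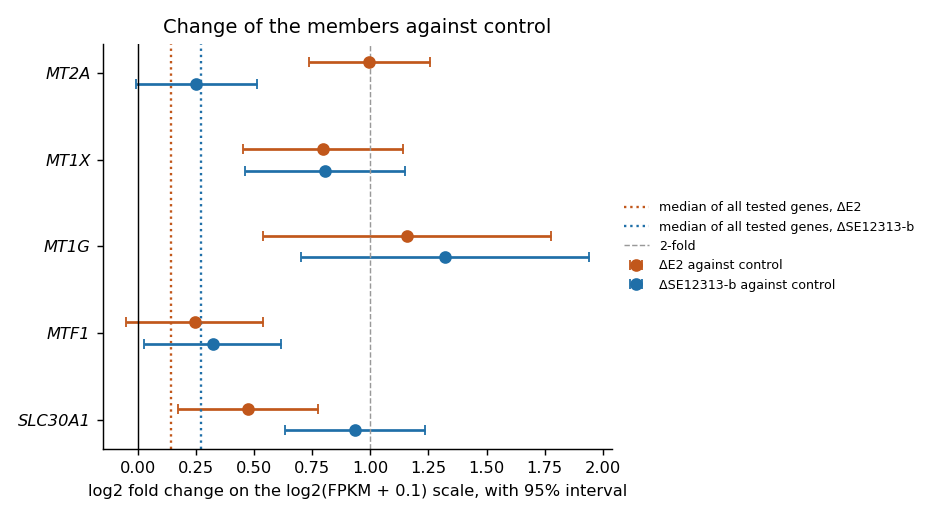
Change of 5 genes against control. The horizontal axis is the log2 fold change on the log2(FPKM + 0.1) scale, points are the fitted values of ΔE2 and ΔSE12313-b and bars their 95% intervals. Dotted lines are the medians of all tested genes (0.14 and 0.27) and the dashed line is 2-fold. MT1X and MT1G have near values in both deletions, MT2A is higher in ΔE2 and SLC30A1 in ΔSE12313-b. MT1E is not drawn, because the controls and ΔSE12313-b have 3 reads or fewer a library.

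Counted together, of the 5 genes that reached 0.5 FPKM in every library (MT2A, MT1X, MT1G, MTF1 and SLC30A1), 1 (MT1G) rose at least 2-fold in ΔE2 at an adjusted p under 0.05, where 11.2% of all 13790 genes tested did and 8.36% fell. All 5 fitted values were above 0, as was the median of all tested genes (0.14). At any size 4 of the 5 rose in ΔE2, where 34.7% of all genes did and 19.4% fell, and in 5 of 5 every clone was above both controls, as for 44.8% of all genes. In ΔSE12313-b 1 of the 5 (MT1G) rose at least 2-fold, against 14.7% of all genes that rose and 7.83% that fell. Again all 5 fitted values were above 0, as was the median of all tested genes (0.27). At any size 3 (MT1X, MT1G and SLC30A1) rose in ΔSE12313-b, where 43.0% of all genes did and 16.4% fell, and in 5 of 5 every clone was above both controls, as for 51.6%. Directly between the deletions 0 of the 5 differed at least 2-fold by limma, against 1.6% of all genes that were higher in ΔE2 and 2.63% that were lower. At any size 1 (MT2A) was higher in ΔE2, against 6.69% of all genes, and 1 (SLC30A1) was lower, against 19.3%. MT1E would add 1 to the higher genes in ΔE2 and in the direct comparison, and is left out for the reason given. It would also add 1 to the lower genes in ΔSE12313-b, at 0 against 4 reads in all. The comparisons with control share the same 2 control libraries. The median log2 fold change of all tested genes was 0.14 in ΔE2, 0.27 in ΔSE12313-b and -0.11 between them. Relative to these medians, MT2A was 0.86 higher in ΔE2 and -0.02 in ΔSE12313-b, MT1X 0.65 and 0.53, MT1G 1.02 and 1.05, SLC30A1 0.33 and 0.66 and MTF1 0.10 and 0.05.

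The summed FPKM of the 6 metallothioneins was 394 and 387 in control, 754, 774 and 823 in ΔE2 and 494, 422 and 530.5 in ΔSE12313-b. ΔE2 was highest in every clone, and the ΔSE12313-b clones lay between the other groups. The sum follows MT2A, which made up between 93.7% and 94.5% of it in control, between 92.4% and 94.4% in ΔE2 and between 89.3% and 92.7% in ΔSE12313-b. MT1X made up 4.93% to 5.51% in control, 4.09% to 5.33% in ΔE2 and 6.33% to 8.98% in ΔSE12313-b. MT1G took 0.485% to 0.755% in control, 0.551% to 0.900% in ΔE2 and 1.02% to 1.69% in ΔSE12313-b. The make-up thus differed most in ΔSE12313-b, where the shares of MT1X and MT1G lay above those of all other libraries and that of MT2A below them in 2 of 3 clones. The ratio of MT2A to MT1X was 17.0 and 19.1 in control, 17.4 to 23.0 in ΔE2 and 9.95 to 14.6 in ΔSE12313-b. MT1E made up 0.798% to 1.37% of the sum in ΔE2.

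By level per length, the order in control was MT2A, MT1X, SLC30A1, MT1G, MTF1 and MT1E, in which the ranges of MT1G and MTF1 overlapped. In ΔE2 it was MT2A, MT1X, SLC30A1, MT1E, MT1G and MTF1. There the ranges of SLC30A1 and MT1E, and of MT1E and MT1G, overlapped. In ΔSE12313-b it was MT2A, MT1X, SLC30A1, MT1G, MTF1 and MT1E, with no overlap between neighbours.

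Of 12 other metallothionein genes and pseudogenes, 10 were in the table, 0 could be tested and 2 had any read. The pseudogene MT1JP, between MT1M and MT1F in the cluster, was without a read in control and ΔSE12313-b and had 3, 2 and 6 reads in ΔE2, and the pseudogene MT1L had 1 read in the second ΔE2 clone. MT1JP and MT1E thus had most of their reads in the same 3 libraries, at counts for MT1JP that allow no fold. At the read length of 75 bases, 0 windows of the GENCODE transcripts of MT1E or MT1M occur in MT1JP, while at 50 bases some do. Only exact matches were counted, and the GENCODE model of MT1E is longer than its RefSeq row. Whether the MT1JP reads came from MT1E was not tested.

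Of 6 tested genes listed as neighbours of the cluster on the long arm of chromosome 16, 3 rose and 3 fell in ΔE2 and likewise in ΔSE12313-b, with medians of 0.10 and -0.0732 against 0.14 and 0.27 for all genes. Of all genes tested, 34.7% rose and 19.4% fell in ΔE2, and 43.0% rose and 16.4% fell in ΔSE12313-b. At least 2-fold, 11.2% rose in ΔE2 and 14.7% in ΔSE12313-b. NUP93, a nuclear pore scaffold gene beyond MT1X, rose at least 2-fold in ΔE2 (log2 fold change 1.07, limma adjusted p = 0.000131) and by 0.88 in ΔSE12313-b. The others, named after their values were seen, were NUDT21 (0.61 and 0.37) and OGFOD1 (0.50 and 0.38), which rose, and BBS2 (-0.30 and -0.54), HERPUD1 (-0.53 and -0.78) and NLRC5 (-0.45 and -0.52), which fell. Genes on either side of the cluster thus moved in both directions. Directly between the deletions 0 of the 6 passed the limma test.

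**Figure D4:**
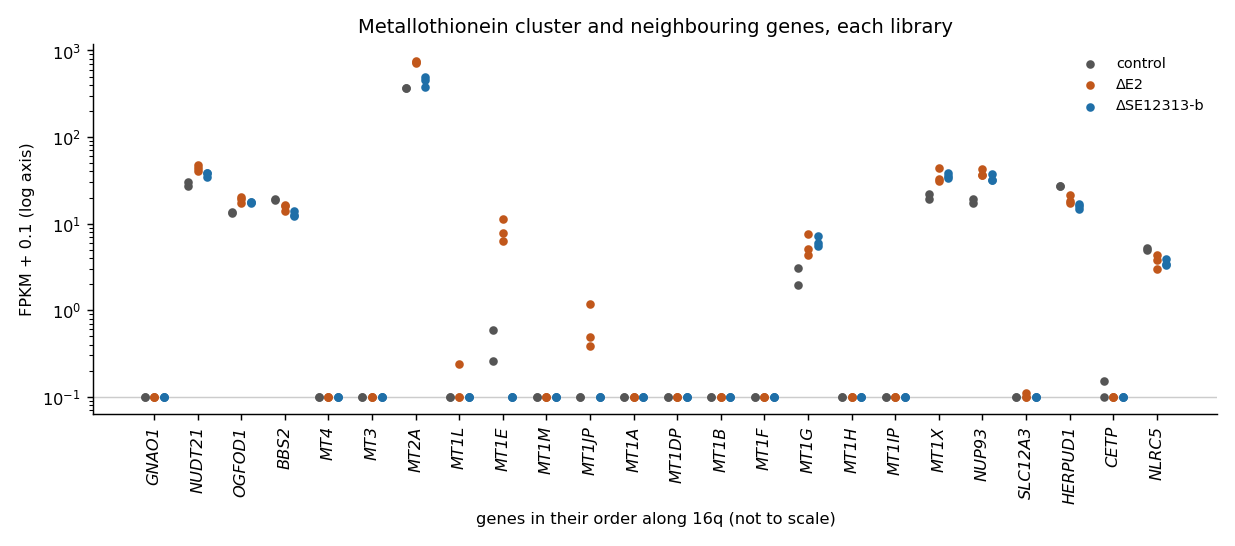
Level of the metallothionein genes and pseudogenes and of the listed neighbours on chromosome 16 in each library. Genes are in their order along the chromosome and not to scale, the vertical log axis is FPKM + 0.1, each point is a library and the grey line marks 0 reads. MT2A is the highest, MT1E and MT1JP have reads mainly in ΔE2, and most other metallothioneins, MT1F and MT1M among them, lie at 0 in all libraries.

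Among the other zinc exporters of the SLC30 family, 5 of 9 could be tested and 0 changed 2-fold. Of all genes tested, 11.2% rose and 8.36% fell by that much in ΔE2, and 14.7% and 7.83% in ΔSE12313-b. At any size 34.7% rose and 19.4% fell in ΔE2, and 43.0% and 16.4% in ΔSE12313-b. Named after their values were seen, SLC30A7 rose in ΔE2 (0.56) and in ΔSE12313-b (0.43), SLC30A6 fell in both (-0.35 and -0.37) and SLC30A4 rose in ΔSE12313-b (0.71). The family median was 0.29 in both. The values of SLC30A1 were 0.47 and 0.93.

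Of the SLC39 family, which carries zinc into the cytosol, 11 of 14 could be tested. In ΔE2 1 of the 11 rose at least 2-fold, where 11.2% of all genes did and 8.36% fell. In ΔSE12313-b 0 did, where 14.7% of all genes rose and 7.83% fell. At any size 3 rose and 2 fell in ΔE2, and 4 rose in ΔSE12313-b. Of all genes, 34.7% and 19.4% did so in ΔE2, and 43.0% rose in ΔSE12313-b. SLC39A8 (ZIP8) rose at least 2-fold in ΔE2 (log2 fold change 1.78, SE 0.32, limma adjusted p = 0.00220) and by 0.92 in ΔSE12313-b (adjusted p = 0.0358), from a mean of 3.25 FPKM in control to 11.6 and 6.64 FPKM. The direct difference of 0.86 did not pass the test (limma adjusted p = 0.0610). Named after their values were seen, SLC39A1 (0.39 and 0.86) and SLC39A7 (0.53 and 0.87) rose in both deletions, SLC39A9 (0.39) rose in ΔSE12313-b, and SLC39A11 (-0.26) and SLC39A13 (-0.36) fell in ΔE2. In the direct comparison SLC39A1 (-0.47), SLC39A7 (-0.34) and SLC39A10 (-0.32) were lower in ΔE2, as 19.3% of all genes were. The medians of the family were 0.10 in ΔE2 and 0.24 in ΔSE12313-b, close to those of all genes.

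Of 10 genes of copper handling 9 could be tested, and 5 rose in ΔE2 and 6 in ΔSE12313-b, against 34.7% and 43.0% of all genes, with medians of 0.28 and 0.72. COMMD1, which takes part in copper export, rose by 1.00 in ΔSE12313-b (limma adjusted p = 0.000287), past the 2-fold limit, and by 0.98 in ΔE2. Of all genes, 14.7% rose past that limit in ΔSE12313-b and 11.2% in ΔE2. Named after their values were seen, the copper importer SLC31A1 (0.28 and 0.53), SLC31A2 (0.65 and 0.99), the copper chaperone ATOX1 (0.52 and 0.72) and SCO2 (0.44 and 0.95) rose in both, ATP7A rose in ΔSE12313-b (0.81), and CCS, the chaperone of superoxide dismutase, fell there (-0.36). SLC31A1 (-0.26), ATP7A (-0.68) and SCO2 (-0.51) were lower in ΔE2 than in ΔSE12313-b, where 19.3% of all genes were.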

How the data were processed

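RNA depleted of ribosomal RNA was sequenced (75 cycles, single end, directional kit). The authors trimmed reads with Trim Galore 0.4.4, mapped them with STAR 2.5.4b to GRCh37, with up to 10 positions per read, and deposited FPKM per RefSeq transcript. The tool and strand setting behind this table are not given in the sources used here. All 8 libraries were used, grouped by their labels.

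Per symbol, the row highest in mean FPKM was used. Symbols with at least 0.5 FPKM in at least 2 libraries (13790) were tested on log2(FPKM + 0.1), which understates changes of low genes, with limma 3.58.1 in R 4.3.3 (3 groups, empirical Bayes with trend, two-sided, Benjamini-Hochberg over all genes tested). A call needed an adjusted p under 0.05 and 2-fold. Reads recovered from the FPKM were whole within 0.1 read for 100% of values checked. They gave depth, bounds (3 reads per library) and the voom alternative. The steps were tested on simulated data. Members and gene lists were chosen with earlier results of these data known, and 1 gene of the neighbour list is not reported here. The rule names all 8 members, list genes called in any contrast, other metallothioneins with a read and the 5 genes most like MT1E. Alternatives were other pseudocounts, filters, scalings, thresholds, rows and samples.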

Additional observations from a re-analysis of the deposited data

Results flagged for a closer look

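Levels of MT1E, MT2A and SLC30A1 differed when the clones of ΔE2 and ΔSE12313-b were set directly against each other. Deletion and cloning cannot be told apart in this comparison. The mean of MT1E in ΔE2 was 4.45 higher on the log2 scale than the level of 3 reads in each ΔSE12313-b library. MT1E had reads in 3 of 3 ΔE2 clones, against 0 of 3 for ΔSE12313-b. As it passed the filter on low values only through ΔE2, its difference stands as a description with no p. MT2A was higher in ΔE2 by 0.74, with every ΔE2 clone above every ΔSE12313-b clone (limma with Benjamini-Hochberg adjusted p = 0.00211). SLC30A1 differed in the other direction, by -0.46, with every ΔE2 clone below every ΔSE12313-b clone (limma adjusted p = 0.0234), but the adjusted p was above 0.05 under 7 of the alternatives.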

How the results depend on the processing

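The counts of called genes below include MT1E, which passed the filter on low values only through ΔE2. Without MT1E, 1 gene was called higher in ΔE2, 1 in ΔSE12313-b and 0 between the deletions, and 0 lower in each. Of all genes tested, 11.2% were called higher and 8.36% lower in ΔE2, and 14.7% and 7.83% in ΔSE12313-b. Between the deletions 1.6% were called higher in ΔE2 and 2.63% lower. The number called in ΔE2 (2) was 1 with a pseudocount of 1 and 4 at 1.5-fold, and between 1 and 3 when a library was left out. In ΔSE12313-b the number (2) was made up of MT1G, higher, and MT1E, lower at 0 against 4 reads in all. It was 1 with a pseudocount of 1, and 1 with only the groups compared, where MT1E does not pass the filter. At 1.5-fold it was 4, and it was between 2 and 3 when a library was left out. Between the deletions it (1) was 2 at 1.5-fold and 1 whichever library was left out. The other 55 values of these counts stayed within 1.5 times. Of the log2 fold changes of single genes, 335 kept their direction and their side of the threshold for a call in that setting. Of the rest, 9 passed it, 3 no longer passed it and 10 turned. Many of these values could not turn. Other filters, other thresholds, no variance trend, or leaving out a library of the group not compared, return the same log2 fold change. The values also include MT1E in the comparisons of ΔE2, through which alone it passed the filter. Among the 9, MT2A in ΔE2 and SLC30A1 in ΔSE12313-b passed 2-fold when a library was left out. The others passed only the lower limit of 1.5-fold, with unchanged values: MT1X and SLC30A1 in ΔSE12313-b, MT1X and MT2A in ΔE2, and MT2A between the deletions. Those that turned were small: MT2A in ΔSE12313-b (-0.0358 centred, -0.0330 with quantile normalization), and, between the deletions, MTF1 (0.0525 and 0.0228), MT1X (0.12 and 0.13, and 0.0900, 0.0426 and 0.0333 without ΔE2 replicate 1, ΔE2 replicate 2 or ΔSE12313-b replicate 2, from -0.16 to 0.0900 over all libraries left out) and MT1G (0.0062 without ΔE2 replicate 2, from -0.38 to 0.0062 over all left out). The cause was not tested. With a replicate block the counts stayed at 2, 2 and 1. The same-numbered clones of the deletions correlated at 0.107, -0.0804 and -0.0730 in their deviations from the group means. Clones with different numbers correlated at between -0.0754 and 0.137. With so few clones, these values cannot show whether the numbers stand for a pairing. With 2 control libraries and 9 to 42 reads behind each MT1G value, small differences were not detectable at this depth.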
